A study of Mus musculus with 16 samples.

Results

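The genes described here are 9 genes of peripheral myelin, Mbp, Pmp22, Mag, Prx, Cnp, Mal, Pmp2, Egr2 and Pllp, found by symbol among the 54838 genes of the mouse spleen count table. The question put to them is whether the glia of the spleen, the Schwann cell relatives that accompany its nerve fibres, carry the genes that build a myelin sheath. RNA was sequenced from C57BL/6 spleen in 8 size-selected samples, labelled as spleen glia, and 8 whole spleen samples. The size-selected cells were those kept back by a cell strainer after digestion of the tissue with enzymes and lysis of red blood cells, so they hold any cell or clump that the mesh retained. The preparation of whole spleen is not described separately in the labels. Each group has 1 sample from each of the numbers 407, 408, 427 and 435 (male) and 436, 445, 447 and 460 (female), and no treatment or allele is named for either group. Age, and whether a number stands for 1 animal, are not given in the sources used here, so p-values measure the spread between these samples.

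Schwann cells of peripheral nerve come in a myelinating form, which wraps 1 large axon in compacted membrane, and a non-myelinating form, which holds bundles of small axons in troughs of cytoplasm. The nerve that enters the spleen is sympathetic, and its fine fibres are known mostly as unmyelinated axons. Compact peripheral myelin holds PMP22, myelin basic protein and lipids, while MAG, periaxin and CNP lie in or beside the uncompacted parts of the sheath. EGR2 is the transcription factor that, with SOX10, switches on the myelin program. Several of these genes have names from myelin and are also known to be used elsewhere. MAL is short for myelin and lymphocyte protein, EGR2 acts in T cells, and the Mbp locus also gives golli transcripts that are made by immune cells.

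Of the 9 genes, 7 passed the filter on low counts. Of these, 5 were higher in the size-selected samples (Mal, Pmp22, Prx, Mag and Egr2), where 37.5% of all 14510 genes tested were called higher. Only Cnp of the 7 was lower, where 30.4% of all genes tested were called lower, and Mbp passed in neither direction. The changes ranged from a log2 fold change of 4.2 for Mal to -0.80 for Cnp, with a median of 1.72 over the 7 genes and 0.05 over all genes tested. A call here is a Benjamini-Hochberg adjusted p under 0.05 in edgeR's quasi-likelihood test over all genes. Levels are CPM, counts scaled to a common library size with TMM factors. Prx and Mal did not reach the filter's level, 0.686 CPM, in all whole spleen samples, so they entered the test through the size-selected samples, where they are high, and of the 5 genes that reached it in all of them 3 were called higher and 1 lower. In bulk RNA, more cells of a type and more RNA per cell cannot be told apart.

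The libraries held 13119992 to 19944440 estimated counts in the size-selected group and 12153770 to 16282454 in whole spleen. The label was set beside 10 markers of the Schwann lineage, which summed to 300.0 to 751 CPM in the size-selected samples and 19.6 to 45.6 CPM in whole spleen. Of the 8 that passed the filter, 7 did not reach its level in all whole spleen samples, so their calls are no check of the label. Sox10, the defining Schwann cell factor, stayed below the filter but was at 0.526 to 6.58 CPM in the size-selected samples and at 0 to 0.408 CPM in whole spleen. Markers of other cells were higher too: endothelial markers summed to 1030 to 2610 CPM against 103 to 269 CPM in whole spleen, fibroblast markers to 1070 to 3840 CPM against 4.81 to 60.3 CPM, and smooth muscle markers to 926 to 4270 CPM against 12.5 to 86.3 CPM. T cell markers summed to 181 to 604 CPM in the size-selected samples and 823 to 1230 CPM in whole spleen, and 9 of 10 were called lower. B cell markers summed to 1180 to 4430 CPM against 6550 to 8000 CPM, with 8 of 10 called lower. Macrophage markers summed to 3720 to 8570 CPM against 1790 to 3410 CPM. The part of these other cells in the changes of the myelin genes was not tested.

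**Figure D1:**
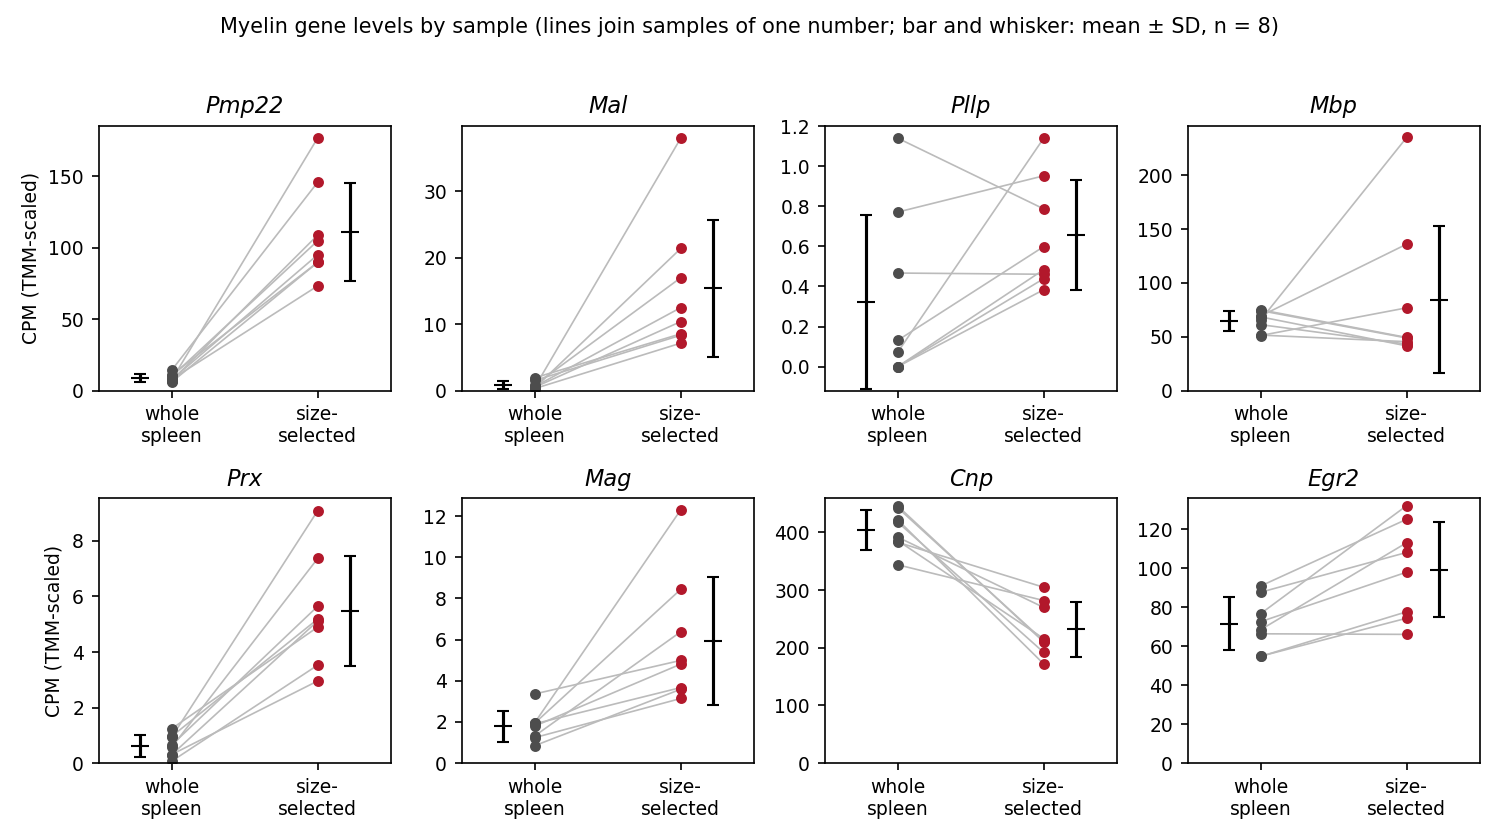
Level of 8 of the 9 myelin genes in each sample, as TMM-scaled CPM on linear axes (whole spleen in grey, size-selected in red, grey lines joining the samples of 1 number, bars and whiskers for mean ± SD of 8 samples). Pmp22, Mal and Prx rise in all 8 numbers without overlap of the groups, Cnp falls in all 8, and the Mbp values of numbers 408 and 436 lie far above those of the other numbers.

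Pmp22 encodes a membrane protein of compact myelin that is also made outside nerve, in fibroblasts and epithelia. Its lowest, median and highest levels were 73.4, 100 and 177 CPM in the size-selected samples and 6.07, 7.84 and 14.4 CPM in whole spleen. All 8 size-selected samples lay above all whole spleen samples, and number 436 was the highest. The means were 111 ± 34.2 CPM and 8.97 ± 2.70 CPM (SD, n = 8 each), and the log2 fold change was 3.63 (SE 0.21, edgeR adjusted p = 1.46e-10), or 12.3-fold. The Pmp22 values deposited for the size-selected samples carry 2 multiplying constants below 1, and dividing them out gave 4.00 (SE 0.21) on the log2 scale. The gene lies on chromosome 11 at 63128982 to 63159547 on the plus strand (GRCm38).

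Mal encodes a small membrane protein of lipid-rich domains in myelin and in the apical membranes of epithelia. Its lowest, median and highest levels were 7.16, 11.4 and 38.0 CPM in the size-selected samples and 0.321, 0.570 and 1.94 CPM in whole spleen. The groups did not overlap, and numbers 436, 427 and 408 were the highest of the size-selected samples, at 38.0, 21.4 and 17 CPM. The log2 fold change was 4.2 (SE 0.44, edgeR adjusted p = 1.09e-07), or 18.4-fold, and the rise held in all 8 numbers. By number the log2 difference ran from 2.06 in number 407 to 5.91 in number 436, so Mal rose by unequal amounts. Mal lies on chromosome 2 at 127633226 to 127656695 on the minus strand.

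Prx encodes periaxin, a scaffold that ties the Schwann cell membrane to the basal lamina through the dystroglycan complex. Its levels were low in both groups. They ran from 2.96 through a median of 5.16 to 9.09 CPM in the size-selected samples, and from 0.0701 through 0.612 to 1.24 CPM in whole spleen. The groups did not overlap, and the log2 fold change was 3.09 (SE 0.38, edgeR adjusted p = 8.43e-07), or 8.52-fold. Pmp22, Mal and Prx were thus the 3 genes of the set whose size-selected samples all lay above whole spleen, as did those of 23.3% of all genes tested. Prx lies on chromosome 7 at 27499324 to 27520214 on the plus strand, and 300 of its exon bases are shared with the antisense gene Gm15541. Reads of the pair cannot be told apart without strand, and the strand setting is not given in the sources used here.

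The promoters of these 3 genes are shown because they changed most, and because each holds a match to CATTCC, the core recognised by TEAD factors, the DNA-binding partners of YAP and TAZ. Each sequence is the 250 bases before a RefSeq transcript start (GRCm38.p6), 5′ to 3′ on the gene's strand, with the match to CATTCC or its reverse complement in capitals. The windows are chr11:63128732-63128981 (plus strand) for Pmp22, chr2:127656696-127656945 (minus strand) for Mal and chr7:27499074-27499323 (plus strand) for Prx.
Pmp22: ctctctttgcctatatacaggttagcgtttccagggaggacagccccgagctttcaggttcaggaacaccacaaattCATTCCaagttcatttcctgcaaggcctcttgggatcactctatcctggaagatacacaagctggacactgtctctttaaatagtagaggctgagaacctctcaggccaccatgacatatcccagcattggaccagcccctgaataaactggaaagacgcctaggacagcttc
Mal: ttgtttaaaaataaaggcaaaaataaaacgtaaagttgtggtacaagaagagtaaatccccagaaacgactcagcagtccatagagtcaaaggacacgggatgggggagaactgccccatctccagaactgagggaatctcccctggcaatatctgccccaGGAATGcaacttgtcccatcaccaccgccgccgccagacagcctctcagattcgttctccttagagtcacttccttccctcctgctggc
Prx: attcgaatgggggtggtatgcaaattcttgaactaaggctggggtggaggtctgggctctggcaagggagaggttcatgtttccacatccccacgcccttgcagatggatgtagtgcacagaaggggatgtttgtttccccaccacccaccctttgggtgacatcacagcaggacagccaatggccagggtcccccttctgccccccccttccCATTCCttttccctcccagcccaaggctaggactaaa
The match starts 173 bases before the transcript start in Pmp22, 89 in Mal and 37 in Prx. Pmp22 has 4 RefSeq windows, and only the one shown holds the match. RefSeq promoters of 7 of the 9 genes were searched, in 16 windows, some of which overlap each other. Those of Mbp and Pmp2 were not searched, so the counts of windows that follow say nothing about these genes. CATTCC, searched on both strands, was in 6 of the 16 windows and in 12.6% of 32851 windows of all genes. The 6 windows belong to Cnp, Egr2, Mag, Mal, Pmp22 and Prx, so the match was found before genes that rose and before Cnp, which fell. ACAAAG, a core of SOX factors, was in 3 windows, of Mag and Cnp (16.5% of all windows), and ACAATG, another SOX core, was in 0 (10.7%). GCGNGGGCG, the EGR site, was in 0 of the 16 windows (4.70% of all), and GGGCGG, the GC box that can overlap it, was in 6 (32.7%). These are matches of letters in a short window, not measured binding.

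Mag encodes a sialic acid binding protein of the inner Schwann cell membrane that faces the axon. Its lowest, median and highest levels were 3.14, 4.90 and 12.3 CPM in the size-selected samples and 0.849, 1.85 and 3.36 CPM in whole spleen. Of the size-selected samples, 7 lay above all whole spleen samples, and Mag was higher in all 8 numbers. The log2 fold change was 1.72 (SE 0.32, edgeR adjusted p = 9.95e-05), or 3.28-fold. The highest sample was number 427 at 12.3 CPM, followed by 436 at 8.44 CPM, while number 408, which was among the highest for Mbp and Mal, had 3.67 CPM. Mag lies on chromosome 7 at 30899176 to 30914873 on the minus strand.

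Egr2 rose far less than the 4 genes above. Its lowest, median and highest levels were 66.0, 103 and 132 CPM in the size-selected samples and 54.7, 70.5 and 90.8 CPM in whole spleen. The groups overlapped, with 5 size-selected samples above all whole spleen samples, and Egr2 was higher in 7 of 8 numbers. In number 445 the levels were 66.0 and 66.3 CPM. The log2 fold change was 0.47 (SE 0.15, edgeR adjusted p = 0.00942), or 1.39-fold. The call was lost without numbers 408 and 436, at 0.43 (adjusted p = 0.0642), and with the constants divided out and no count filter, at 0.37 (adjusted p = 0.0521). Egr2 lies on chromosome 10 at 67535475 to 67542188 on the plus strand.

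Mbp, which encodes the protein that draws the cytoplasmic faces of compact myelin together, was less abundant in 5 of the 8 size-selected samples than in any whole spleen sample. The size-selected levels were 43.3 CPM in number 407, 136 in 408, 45.5 in 427, 76.9 in 435, 235 in 436, 49.4 in 445, 41.6 in 447 and 48.9 in 460. Whole spleen ran from 51.2 through a median of 67.0 to 75.1 CPM. The size-selected samples fell on both sides of whole spleen: numbers 408, 435 and 436 were above all whole spleen samples, and the other 5 below. The means were 84.6 ± 68.5 CPM and 64.6 ± 9.28 CPM (SD, n = 8 each). The log2 fold change was 0.39 (SE 0.32, 95% interval -0.24 to 1.02, edgeR adjusted p = 0.291). It was -0.03 (adjusted p = 0.921) without number 436, and -0.32 (adjusted p = 0.0932) without 408 and 436. The gene spans 82475146 to 82585637 on the plus strand of chromosome 18 with 16 annotated transcripts from 12 starts, which a count per gene does not separate.

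Cnp, which encodes the enzyme CNPase of uncompacted myelin and is also made at lower levels in many other cells, was the one gene of the set that fell. Its lowest, median and highest levels were 172, 214 and 305 CPM in the size-selected samples and 344, 405 and 446 CPM in whole spleen. The deposited values did not overlap, a fall shared by 11.6% of all genes tested, and Cnp was lower in all 8 numbers. The log2 fold change was -0.80 (SE 0.11, edgeR adjusted p = 4.71e-06), or 1.74-fold lower. Cnp too carries a constant below 1 in the size-selected columns. With the constant divided out, the levels were 195 to 355 CPM against 337 to 437 CPM, so that the groups overlapped and 7 of 8 size-selected samples lay below all whole spleen samples. The log2 fold change was then -0.56 (SE 0.11, adjusted p = 0.000256), again lower in all 8 numbers, with differences of only -0.04 in number 435 and -0.08 in 408. Cnp lies on chromosome 11 at 100574904 to 100591729 on the plus strand, and 154 of its exon bases are shared with Dnajc7 on the other strand.

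Pllp and Pmp2 did not pass the filter. Pllp, which encodes the membrane protein plasmolipin, had 5.84 to 20.9 counts per size-selected library and 0 to 14.4 per whole spleen library, or 0.384 to 1.14 CPM against 0 to 1.14 CPM. Tested with no count filter, its log2 fold change was 0.98 (SE 0.70, edgeR adjusted p = 0.269), and 1128 of its exon bases are shared with the antisense gene Gm45767. It was 1.68 (adjusted p = 0.0677) with the number as a block, and 1.37 (adjusted p = 0.111) with its constant divided out. Pmp2, the fatty acid binding protein of compact peripheral myelin, was at 0 in all 16 samples. A count of 0 allows up to 3 counts, or 0.144 to 0.245 CPM depending on the library, and this limit covers counting error only. Gm37389, a gene model on the same strand that shares 1224 exon bases with Pmp2, was also at 0 in all 16. Pllp lies on chromosome 8 at 94674894 to 94696278 and Pmp2 on chromosome 3 at 10179851 to 10183929, both on the minus strand.

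Levels of different genes can be set side by side only per length, as CPM per kilobase of exon. On that scale the order in the size-selected samples was Cnp at 63.8 ± 13.0, Pmp22 at 47.0 ± 14.5, Egr2 at 29.2 ± 7.19 and Mbp at 9.98 ± 8.09 (SD, n = 8 each). Below them came Mal at 5.55 ± 3.72, Mag at 1.45 ± 0.764, Prx at 0.982 ± 0.354 and Pllp at 0.315 ± 0.133. The intervals of mean ± SD overlap between neighbours in this order, except between Egr2 and Mbp and between Prx and Pllp. In whole spleen Cnp led at 111 ± 9.48 and Egr2 followed at 21 ± 3.95, ahead of Mbp at 7.63 ± 1.1 and Pmp22 at 3.81 ± 1.15. Pmp22 thus moved from the fourth to the second place of the set, while the other 3 leading genes kept their order.

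Beside the 9 genes, Gjb1, which encodes the gap junction protein connexin 32 of myelin, was detected only in numbers 408 and 436, at up to 18 counts, and was at 0 in all 8 whole spleen samples. Numbers 408 and 436 were also the highest in Mbp. Ncmap, which encodes a non-compact myelin protein, stood at -0.79 (SE 0.45) on the log2 scale (edgeR adjusted p = 0.130), and without number 436 it was called lower, at -1.19 (adjusted p = 0.0331). The order of the samples differed between the myelin genes: number 427 had the lower Mbp of 427 and 408, at 45.5 and 136 CPM, but the higher Mag, at 12.3 and 3.67 CPM.

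**Figure D2:**
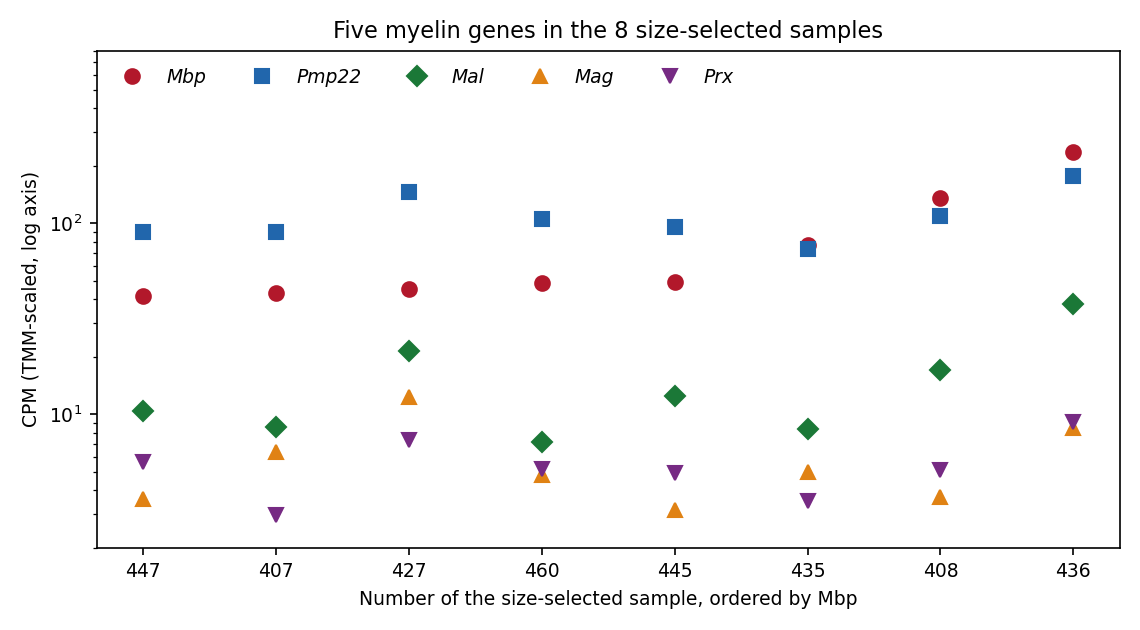
Mbp, Pmp22, Mal, Mag and Prx in the 8 size-selected samples, as TMM-scaled CPM on a log axis, with the samples ordered by Mbp (1 point per gene and sample). Number 436 is highest in Mbp, Pmp22, Mal and Prx, while number 427 is highest in Mag and has Mbp of only 45.5 CPM.

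The change of each myelin gene was set beside that of the glial markers, 17 Schwann lineage and non-myelinating Schwann cell genes past the filter, as a description with no test. Of these markers, 7 of the 8 of the lineage and 7 of the 9 non-myelinating ones did not reach the filter's level in all whole spleen samples, so the size of their change depends on the prior count. Their mean log2 change by number (CPM with a prior count of 2) was 4.45 ± 0.68 (SD, n = 8 numbers). The changes of the myelin genes on the same scale were 3.98 ± 1.3 for Mal, 3.6 ± 0.49 for Pmp22, 3.02 ± 0.73 for Prx and 1.6 ± 0.69 for Mag. Mal lay 0.47 ± 0.99 below the markers, Pmp22 0.85 ± 0.42, Prx 1.44 ± 0.97 and Mag 2.86 ± 0.91, and the difference was below 0 in 6, 8, 7 and 8 of 8 numbers. Egr2, Mbp and Cnp, whose levels in whole spleen were 54.7 CPM or more, 51.2 CPM or more and 344 CPM or more, lay 4.00 ± 0.61, 4.35 ± 0.57 and 5.27 ± 0.65 below. A gene that other spleen cells express at such levels could reach the markers' change only at far higher levels in the size-selected samples, so these 3 differences do not measure glial cells alone. With a prior count of 0.5 the difference was -1.08 for Mal.

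**Figure D3:**
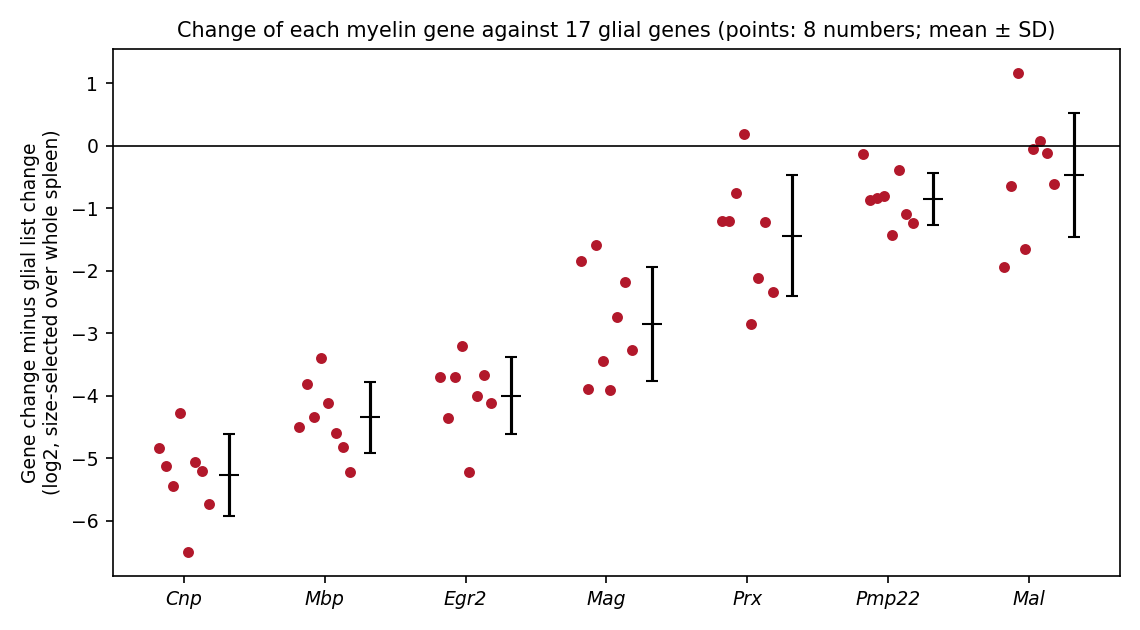
Difference between the log2 change of each myelin gene and the mean log2 change of 17 glial markers (size-selected over whole spleen), with 1 point per number and whiskers for mean ± SD over 8 numbers. Cnp, Mbp, Egr2 and Mag lie below 0 in all 8 numbers by more than 2 on average, and Mal scatters around 0.

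The values also moved with the choice of markers. Against the 9 non-myelinating Schwann markers past the filter alone, the difference was -0.35 for Pmp22, -0.93 for Prx and 0.03 for Mal. Scn7a, the sodium channel of non-myelinating Schwann cells, rose by 8.0 on the log2 scale (SE 0.69), Gfra3 6.27 (SE 1.03) and Matn2 5.91 (SE 0.48), while Ngfr, the low-affinity neurotrophin receptor, rose by 1.28 (SE 0.30). Gfap was called at 2.21 (SE 0.79, edgeR adjusted p = 0.0198) but lost its call with the number as a block, at 1.93 (adjusted p = 0.0933), without number 436, at 1.22 (adjusted p = 0.136), and without 460, at 2.09 (adjusted p = 0.0503). The estimate for Gfra3 turned on single samples, at 9.78 without number 427 and 5.25 without 436. The 8 lineage markers had a median of 6.63 against 4.85 for these 9, and ran from 1.54 (SE 0.42) for Erbb3 to 8.26 (SE 0.94) for Kcna1, with Fabp7 and Cdh19 at 7.87 (SE 0.55 and 0.80). Without 1 number, Kcna1 was at 7.25 (436), 8.92 (427) and 8.96 (435), Fabp7 at 8.74 (427), and Cdh19 at 7.26 (436) and 8.50 (435).

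Within the size-selected group, samples with more glial RNA had more Pmp22 and more Mal. The glial score, the mean log2 CPM of the 17 markers, ran from 3.13 in number 447 to 5.46 in 436, with 427 at 4.46. Over the 8 samples Pearson's r with this score was 0.85 for Pmp22 and 0.88 for Mal (exact permutation p = 0.0088 and 0.00692, both 0.0308 when adjusted over 7 genes). Spearman's rho was 0.76 for Pmp22 and 0.62 for Mal (exact permutation p = 0.0368 and 0.115, adjusted 0.160 and 0.161). Without numbers 436 and 427, the farthest from the median score, r was 0.06 for Pmp22 and 0.31 for Mal, so both relations rest on those samples. Both also missed the threshold without 407, 408, 427 or 436 alone (exact adjusted p = 0.0549 to 0.22). Mbp had r = 0.77 (exact permutation p = 0.0307, adjusted 0.0572) and rho = 0.74 (exact p = 0.0458, adjusted 0.160), and r was 0.90 without those samples. Without number 427 alone its r was 0.93 (exact permutation adjusted p = 0.00278), and without 436 alone 0.36. For Prx r was 0.75 (exact permutation p = 0.0327, adjusted 0.0572) with rho 0.52 (exact p = 0.197, adjusted 0.229), and without those samples r was 0.03. Without number 447 alone it was 0.85 (exact adjusted p = 0.0319). The r of Mag was 0.66, of Egr2 0.55 and of Cnp 0.27, with exact adjusted p of 0.0991, 0.181 and 0.536. Their rho were 0.62 (exact p = 0.115), 0.62 (0.115) and 0.21 (0.619), and r without those samples was -0.08, 0.48 and 0.80. Between the 7 genes themselves, none of 21 pairs passed after adjustment, the lowest exact adjusted p being 0.0779, for Pmp22 with Mal (r = 0.88) and for Pmp22 with Prx (r = 0.87).

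Genes with the most similar pattern were ranked by r of log2 CPM over the 16 samples after the mean of each group was subtracted, among the 9307 genes whose mean log2 CPM was 3 or more. These r are descriptions over samples that share libraries. Mbp was most like Nfatc2 (0.86), Rela (0.84) and Otud1 (0.80). Within the size-selected samples these r were 0.96, 0.95 and 0.91, but within whole spleen only 0.08, 0.17 and 0.48. The likeness to Mbp thus came mainly from the size-selected group. Pmp22 was most like Mt2 (0.89), Lpl (0.89) and Nid2 (0.86). Mag was most like Dusp1 (0.88), Errfi1 (0.86) and Junb (0.85), and Prx most like Fam20b (0.91), Cyth3 (0.90) and Cpt1a (0.88). Cnp was most like Add3 (0.89), Pcid2 (0.88) and Slain1 (0.85), and Egr2 most like Fam43a (0.94), Anxa6 (0.89) and Sirpb1a (0.88). Mal had the weakest neighbours, Ccl7 (0.74), Dbi (0.74) and Gp9 (0.73).

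Other genes of the myelin sheath and of its paranodes, the loops that seal the sheath to the axon, mostly rose. Of 26 such genes 20 passed the filter and 18 were called higher, 0 lower, with a median log2 fold change of 2.48. Only 10 of the 20 reached the filter's level in all whole spleen samples, and 9 of these were called higher, where 37.5% of all genes tested were. Ank3, the ankyrin of nodes, rose by 6.78 (SE 0.46). Gjc3, a glial connexin, was at 0 in all 8 whole spleen samples and ran from 1.15 through a median of 1.99 to 11.6 CPM in the size-selected ones. Drp2, the dystrophin relative that binds periaxin, rose by 5.37 (SE 0.60; 6.42 without number 427), and Dag1, which encodes dystroglycan, by 2.45 (SE 0.14). Several of the 18, such as Cldn5 (3.42, SE 0.27) and Tjp1 (4.54, SE 0.40), are junction genes that endothelial cells also use. Mpp6 stood at 0.01 (SE 0.10). Litaf was called at 0.23 (SE 0.08, edgeR adjusted p = 0.0176), but not with the constants divided out (0.18, adjusted p = 0.0567), nor without number 436 or 447 (0.21 in both, adjusted p = 0.0586 and 0.053). Genes below the filter included Gjb1, Cldn19, Gldn, Cntn2 and Bcas1, of which Bcas1 reached 1.74 CPM.

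**Figure D4:**
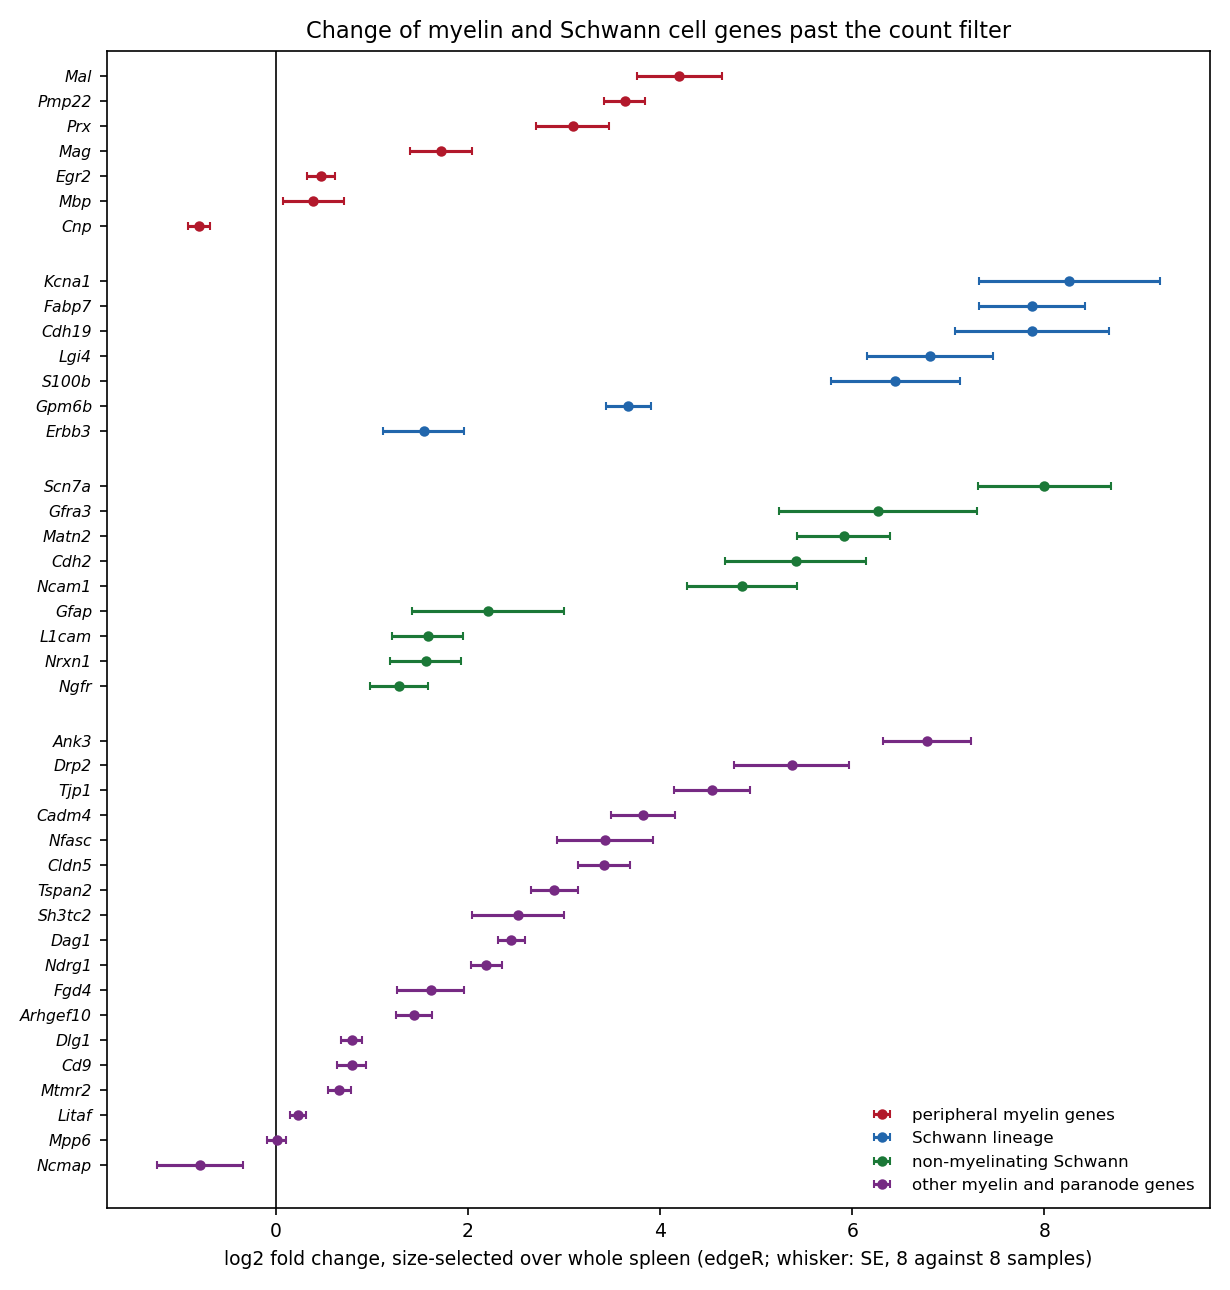
Log2 fold change of size-selected over whole spleen samples for the myelin genes past the count filter and for genes of 3 other lists (points for edgeR estimates, whiskers for SE, 8 against 8 samples). Mal and Pmp22 lead the myelin genes at 4.2 and 3.63 and Cnp lies below 0. Gjc3, at 0 in whole spleen, is left out.

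Of 26 regulators of myelination, 17 were called higher and 3 lower among the 24 past the filter, with a median of 2.52. Of the 13 that reached the filter's level in all whole spleen samples, 6 were called higher and 3 lower, near the 37.5% and 30.4% of all genes tested, so these counts are not a result about the regulators. Lama2, a basal lamina chain, led at 7.56 (SE 0.66), followed by Lgi4, a secreted glial ligand, at 6.81 (SE 0.66) and Nfatc4 at 6.18 (SE 0.54). Without number 436 Lama2 was at 8.99 and Nfatc4 at 7.05. Pou3f1, the factor of promyelinating Schwann cells that acts before EGR2, rose by 3.79 (SE 0.55), or 4.51 without number 447. The TEAD partners Yap1 and Wwtr1 rose by 5.40 (SE 0.43) and 5.55 (SE 0.25), and Tead1 by 4.28 (SE 0.53). The genes called lower were Yy1 at -1.52 (SE 0.16), Srebf2 at -0.30 (SE 0.10) and Hdac1 at -0.23 (SE 0.10). Srebf2 and Hdac1 lost their calls on library totals (-0.17, adjusted p = 0.192, and -0.11, adjusted p = 0.383). That of Srebf2 was also lost without number 445 (-0.25, adjusted p = 0.077), and that of Hdac1 without 427, 436, 445, 447 or 460 (adjusted p = 0.0551 to 0.162) and with its constants divided out (-0.16, adjusted p = 0.129). The EGR2 partners Nab1 and Nab2 stood at 0.18 and -0.20 (edgeR adjusted p = 0.0812 and 0.0853), but with the constants divided out both were called, at 0.55 and -0.25. Pou3f2 was at 0 in all 16 samples.

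Among 10 genes that hold back myelination or mark immature Schwann cells, 6 were called higher and 1 lower of the 8 past the filter, with a median of 2.46. Of the 6 that reached the filter's level in all whole spleen samples, 4 were called higher and 1 lower, beside 37.5% and 30.4% of all genes tested. Jun, which opposes the myelin program, rose by 3.05 (SE 0.18, edgeR adjusted p = 1.62e-10), Id4 by 6.31 (SE 0.41), Hey2 by 6.01 (SE 0.62) and Ednrb by 4.96 (SE 0.32). Without number 435 Hey2 was at 7.44. Egr1, the relative of Egr2 linked to non-myelinating Schwann cells, rose by 1.88 (SE 0.18), while Egr3 fell by 1.09 (SE 0.18). Sox2 stayed below the filter, at 0.197 to 3.76 CPM in the size-selected samples and 0 to 0.163 CPM in whole spleen.

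Genes that make myelin lipids had the smallest median change of these 4 lists. Of 22 such genes 10 were called higher and 3 lower of the 19 past the filter, with a median of 0.44, and with the constants divided out the counts were 12 and 2. Over all genes tested 37.5% were called higher and 30.4% lower. Scd2 and Sqle, enzymes of fatty acid desaturation and cholesterol synthesis, rose by 1.22 (SE 0.14) and 1.05 (SE 0.14). Scd1 was the lowest at -0.60 (SE 0.21), and that call was lost on library totals (-0.45, adjusted p = 0.076) and without number 445 (-0.50, adjusted p = 0.0802). Elovl1 fell by 0.38 (SE 0.08), but stood at -0.01 with its constants divided out. The enzymes most typical of myelin, Ugt8a, Fa2h and Gal3st1, which make galactolipids and hydroxylated fatty acids, did not pass the filter. Ugt8a reached 0.490 CPM, Fa2h 0.448 CPM and Gal3st1 3.54 CPM in the highest size-selected sample.

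Oligodendrocytes, the myelin-forming cells of the central nervous system, share many myelin genes, so their own markers were checked. Of 10 markers 4 (Mobp, Opalin, Olig2 and Ermn) were at 0 in all size-selected samples, and the summed level was 4.22 to 11 CPM against 0.0642 to 0.911 CPM in whole spleen. Only Myrf (6.30, SE 0.65) and Sox8 (3.79, SE 0.56) passed the filter, both through the size-selected samples. Both genes are also used outside oligodendrocytes.

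The change of the myelin genes was compared between the sexes with an interaction term, which called 0 of 15760 genes in edgeR (744 at an unadjusted p under 0.05). With the number as a block it called 3 genes. On simulated counts the edgeR interaction fit recovered 69% of 200 genes changed by 2 on the log2 scale in female size-selected samples. Interactions of this size can therefore be missed. Of the 9 genes, Pllp had the largest interaction, 3.28 (SE 1.23) more in females than in males on the log2 scale (unadjusted p = 0.0161, adjusted p = 1.00), at counts of 20.9 and fewer. Mal had 1.56 (SE 0.79) and Prx -1.2 (SE 0.61), with unadjusted p of 0.0654 and 0.0671. With the number as a block these were 1.4 (unadjusted p = 0.094) and -1.27 (unadjusted p = 0.048, adjusted p = 0.834). Fitted alone, males gave a log2 fold change of 3.46 for Mal and females 5.09, and for Prx males gave 3.83 and females 2.70.

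The authors' deposited table is a list of 2201 genes that rose, the smallest by 3.50 on the log2 scale. Of the 9 myelin genes, the authors' deposited table holds Pmp22, at 3.65 with a mean of 114 TPM against 5.43, and Mal, at 3.71 with a mean of 7.53 TPM against 0.507.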

How the data were processed

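The deposited values are estimated counts per gene for 8 size-selected and 8 whole spleen samples, at most 2 decimals in whole spleen. Trim Galore, STAR, RSEM, DESeq and mm10 are named in the submitters' processing notes, without roles. For 3898 genes, the deposited size-selected values are 2-decimal values multiplied by constants between 0.659 and 0.964, found from the values and mentioned in no label or header. Pmp22, Cnp and Pllp are among them. Dividing by the constants gave the restored counts used as an alternative.

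Per the file headers, the authors' own comparison gives a base mean signal, log2 fold changes with standard errors, a test score, p-values and mean TPM and FPKM per group. The signal, score and FPKM columns were not used further.

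Estimated counts were rounded to whole numbers and tested in edgeR 4.0.16 (R 4.3.3): filterByExpr with a minimum count of 10, TMM scaling, quasi-likelihood test with the group as the only term, Benjamini-Hochberg adjustment over all 14510 genes. All 16 columns were used. SE is the log2 change divided by the root of the F statistic. Correlations were tested by exact permutation of the 8 samples (40320 orders). The planned sign-flip test of each gene against the glial markers is not reported, because most markers are near 0 in whole spleen. Alternatives were RLE scaling, library totals, no count filter or a minimum of 50, DESeq2 1.42.0, voom in limma 3.58.1, a replicate block for the number, restored counts, sex as covariate, 1 sex alone and leaving out each number. Leaving out 408 with 436, and the fits with no filter joined to the block or to restored counts, were added after seeing the data.

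Labels give the same number to 1 sample of each group. Deviations from the group means correlated at a mean of 0.21 within numbers (0.12 to 0.38 over 8 pairs). The mean of -0.03 between numbers follows from subtracting the group means and is no separate comparison. Samples of 1 number also share their sex, which was not separated. The pairing used here is therefore that of the labels. The fits with a replicate block use the pairing, while the edgeR fit reported does not. Coordinates are 1-based from GENCODE M21 (GRCm38). On simulated counts the fit recovered 100% of 197 genes changed by 2 on the log2 scale among 14819 genes, and 13 of its 210 calls were unchanged genes. The simulation changed only 200 genes, equally up and down, at a fixed dispersion and above a low mean level. In the data 9855 of 14510 genes were called, and changes such as the 0.47 of Egr2 were far smaller. The simulated recovery therefore does not carry over to these data.

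The 9 genes, the gene lists and the tests were chosen with earlier results of these data known. Named genes are the 9, the leading called genes of each list in either direction with those not detected, and for each of 7 genes the 3 most similar. Some listed genes enter the counts of their lists and are not reported by name here. Genes named beyond this rule, such as Drp2, Sqle, Dag1, Cldn5, Tjp1, Mpp6, Litaf and the TEAD partners, were chosen after their values were seen.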

Additional observations from a re-analysis of the deposited data

How the results depend on the processing

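The set kept 5 genes higher and 1 lower under 20 of the 23 alternatives to the fit reported. A minimum count of 50, under which 5 of the 9 genes were tested, gave 3 higher. Leaving out 408 with 436, or restored counts with no count filter, gave 4, with Egr2 the gene lost. With the number as a block, for paired samples, 10076 genes were called (9855 without), 5 of the set higher and 1 lower. The block changed no call of the 7 myelin genes past the filter, and in the myelin, regulator, lipid and glial lists it ended only that of Gfap. Among other cell types it moved erythroid markers called lower from 3 to 9. Leaving out each number gave 9249 to 9823 genes called. On library totals the median of all genes moved from 0.05 to 0.18. Litaf was at -0.02 (adjusted p = 0.902) in males alone. In 1 sex alone several glial markers moved by over 1.5 times, such as Gfra3, at 4.93 in males and 9.59 in females.

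Against the non-myelinating markers alone the difference was -0.35 for Pmp22, -0.93 for Prx and 0.03 for Mal. With a prior count of 0.5 Mal was at -1.08, and without each number in turn it was at -0.70 to -0.26. The r of Prx with the non-myelinating markers alone was 0.78 (exact adjusted p = 0.0397). Without each number in turn r ran from 0.36 to 0.93 for Mbp, 0.65 to 0.99 for Pmp22, 0.51 to 0.85 for Prx and 0.68 to 0.92 for Mal, the lowest value being without 436 in all 4. The cause was not tested. Depth limits Pllp, Pmp2 and Gjb1, which rest on few counts or none.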
